A study of Capra hircus with 4 samples.

Results

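Collagen chain genes were taken as all genes whose symbol follows the pattern COL, a type number, A and a chain number, which gave 43 of the 20326 genes measured. The source of the RNA was secondary hair follicle stem cells, the stem cells of the follicles that grow the cashmere undercoat, isolated from the dorsal skin of cashmere goats (Capra hircus) and cultured. The 4 libraries were 2 from mid anagen in October, 1 female and 1 male, and 2 from early anagen in April, 1 female and 1 male. Anagen is the growth phase of the hair cycle, and the design asks what separates these points of it in the expression of the cells. The labels name no breed, genotype, treatment or age, and do not say how long the cells were cultured or whether cells of several goats were pooled, so the spread measured here is only that between these libraries.

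Collagens are extracellular proteins in which alpha chains wind into a triple helix. Fibrillar collagens form the tensile fibres of the dermis and are made mostly by fibroblasts, whereas types IV, VII and XVIII belong to the basement membrane on which the basal cells of epidermis and follicle rest. Type VI forms beaded microfilaments in connective tissue, fibril-associated collagens coat or link fibrils, and transmembrane collagens sit in the cell membrane. Type XVII, the chain of the hemidesmosome, anchors basal keratinocytes to the basement membrane and is known for its part in keeping hair follicle stem cells in place. By class the 43 genes were 11 fibrillar, 7 basement membrane, 5 type VI, 4 transmembrane, 10 fibril-associated and 6 other collagens, the last being types VIII, X, XV, XXVI and XXVIII.

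Values are the deposited abundances per gene, which behave like values scaled for transcript length. Comparisons between genes, sums and shares assume that scaling. They are not counts, and how many reads lie behind them is not known. Totals ran from 844960 to 933211 at mid anagen and from 1068430 to 1186970 at early anagen. Genes were tested on the scale log2(value + 1) where they reached 1 in at least 2 libraries, which 12486 genes did, 25 of them collagens. Of those 25, 6 reached 1 only in the mid libraries, so the filter fixed their direction in advance. Of 16 basal keratinocyte and follicle stem cell markers 15 were found, while KRT15 was not. Of these 15, 14 were at or above 1 in both mid libraries, and 14 and 13 in the female and male early libraries. Their levels ranged widely. LGR5 was at 4.48 and 2.90 in the female and male mid libraries and at 1.00 and 0.352 in the female and male early libraries. CD34 stayed under 1 in every library. KRT14, a basal keratin, was at 9603 and 8956 in the female and male mid libraries and at 20587 and 23511 in the female and male early libraries. Of the 14 tested markers of this list, 9 were higher in both mid libraries than in both early libraries and 3, KRT14 with KRT5 and ITGB4, were lower in both. Over all tested genes these shares were 31.5% and 30.9% as deposited, and 57.2% and 12.7% after each library was rescaled to a common total.

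The collagen repertoire of these cells was led by a single chain in both phases. COL17A1 was at 1051 in the female and 866 in the male mid library, against 1361 in the female and 923 in the male early library. Its phases overlapped, and it ranked between 125 and 187 from the top among all genes in every library. It made up 62.0% and 61.2% of the summed collagen level in the female and male mid libraries, against 82.6% and 71.3% in the female and male early libraries. The phases did not overlap in this share. COL17A1 itself did not pass the test (log2 fold change -0.23, SE 0.29, limma adjusted p = 0.634, n = 2 per phase), and its direction turned to 0.11 when each library was rescaled to a common total. The other transmembrane chain that could be tested, COL23A1, was at 2.23 and 4.15 in the female and male mid libraries and at 1.26 and 2.92 in the female and male early libraries (log2 fold change 0.45, SE 0.36, limma adjusted p = 0.443).

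**Figure D1:**
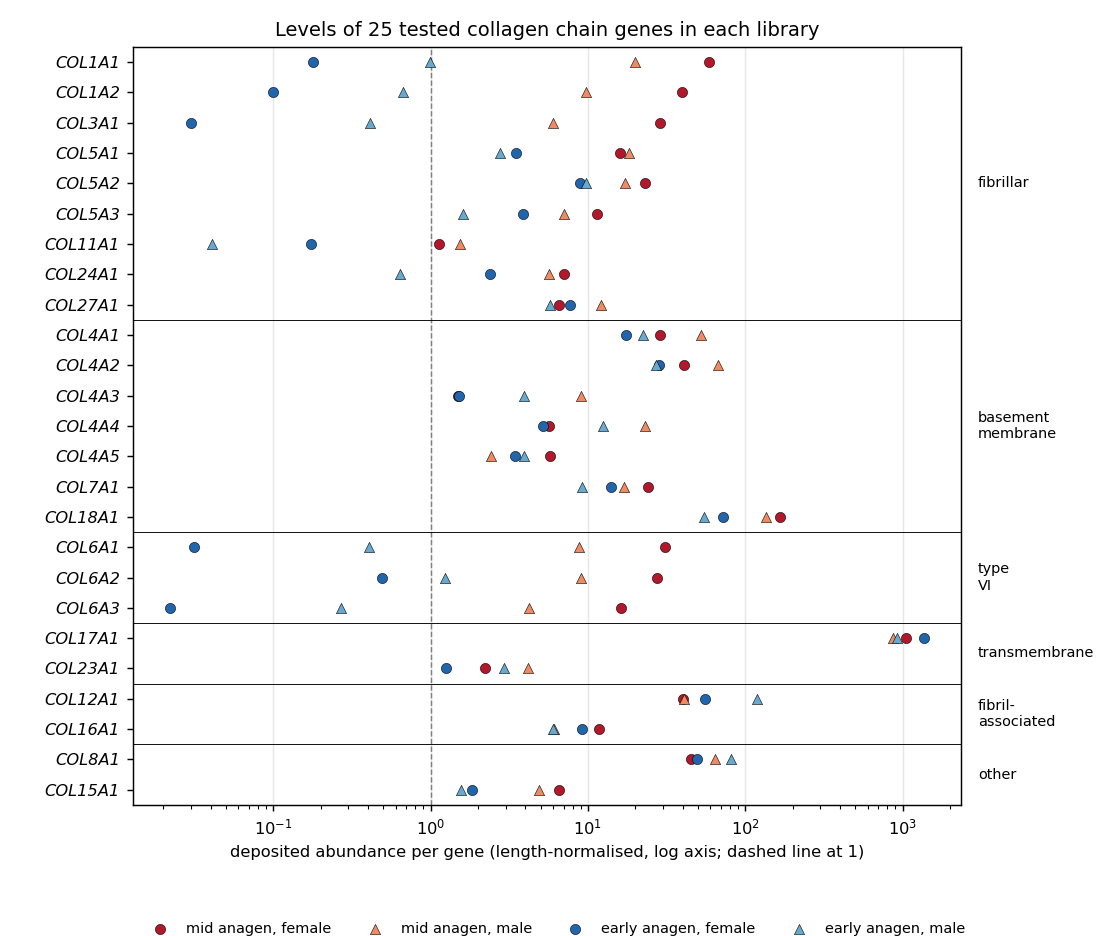
Deposited abundance of the 25 tested collagen genes (log horizontal axis) with 1 point per library, circles for female and triangles for male, red shades for mid and blue shades for early anagen, grouped by class. The chains of types I, III and VI lie at 4.24 to 58.6 in the mid libraries and at 0.0221 to 1.23 in the early libraries, while COL17A1 stays between 866 and 1361.

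Between the phases, limma called 38 of 12486 genes, 28 higher at mid anagen (0.224%) and 10 lower (0.0801%), or 0.304% in all. Among the 25 tested collagens 1 rose and 0 fell, while at an unadjusted p under 0.05 there were 16 higher and 1 lower, against 13.2% and 14.7% of all tested genes. The 16 include the 6 collagens that reached 1 only in the mid libraries, whose direction the filter had fixed. The gene that rose was COL5A1, a chain of type V collagen, which is built into type I fibrils and limits their width. COL5A1 was at 16.1 in the female and 18.4 in the male mid library, against 3.49 in the female and 2.76 in the male early library. The libraries of each phase lay close together and the phases were far apart, with a log2 fold change, mid minus early, of 2.15 (SE 0.17, limma adjusted p = 0.0323, with 2 libraries per phase). This call ended when either early library was left out (adjusted p = 0.0659 without the female and 0.199 without the male) and when no filter was applied (adjusted p = 0.105). Rescaled to a common total, 12 collagens were called higher, against 4.55% of all tested genes, and 0 lower. They were the 6 chains of types I, III and VI, the 3 of type V, COL24A1, COL18A1 and COL15A1. Of these, COL1A1, COL1A2, COL3A1, COL6A1 and COL6A3 reached 1 only in the mid libraries, so the filter had fixed their direction. This rescaling also shifted the median over all tested genes to 0.32, against 0.01 as deposited, on the log2 scale.

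Without reference to the test, values of 16 of the 25 tested collagens were higher in both mid libraries than in both early libraries, 1 was lower in both and 8 overlapped. Over all tested genes 31.5% were higher in this way and 30.9% lower, and 0.304% passed the test. After rescaling to a common total the counts of collagens were again 16 and 1, but 57.2% of all tested genes were then higher and 12.7% lower, so the share of collagens, 64%, lay near that of all genes on this scale. Of the 19 collagens that reached 1 in an early library, and so were not fixed by the filter, 10 were higher without overlap as deposited. This was 52.6%, against 30.3% of all genes so selected. These shares are not given after rescaling, where that of all tested genes, 57.2%, was above 52.6%, so no excess of these 19 is shown on that scale. The median log2 fold change of these 19 was 0.77, while that of the 12274 such genes was 0.00. Over all 43 members, tested or not, the median was 0.37.

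**Figure D2:**
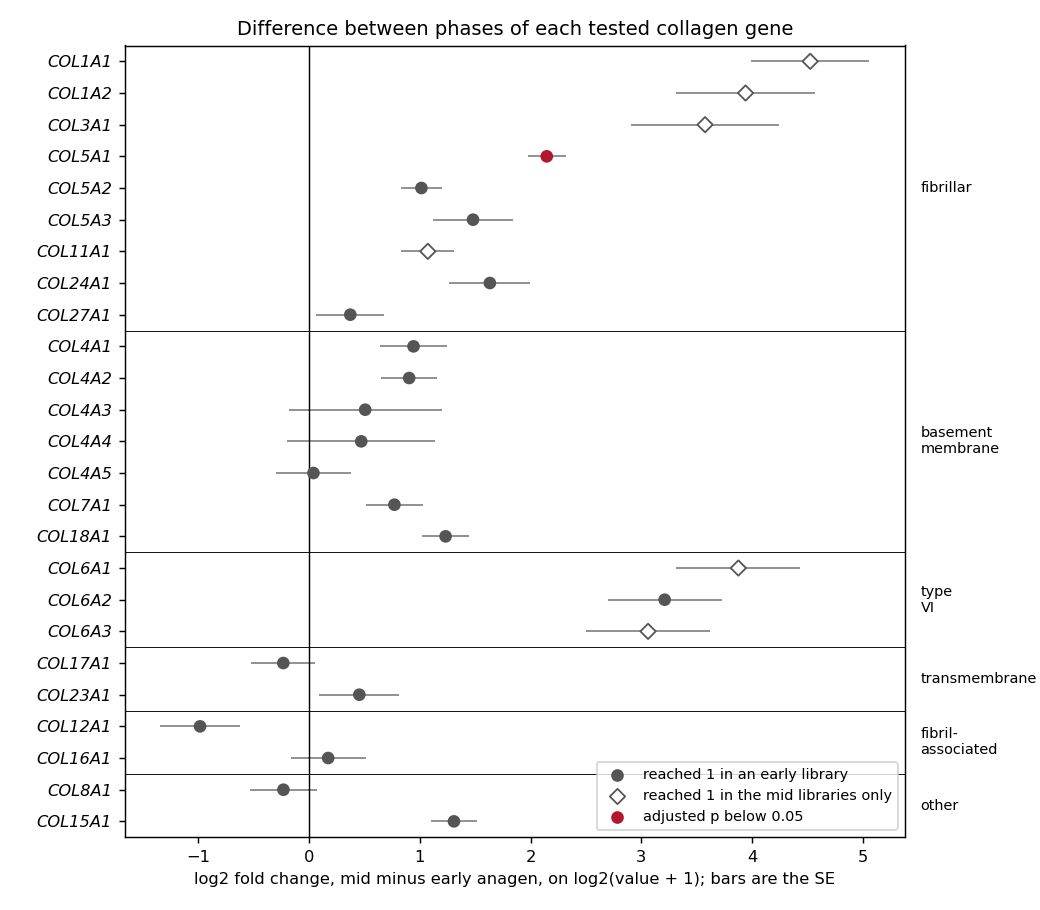
Log2 fold change of each tested collagen gene, mid minus early anagen on the log2(value + 1) scale, with bars of 1 SE. Open diamonds reached 1 only in the mid libraries, and COL5A1 in red was the only collagen with an adjusted p below 0.05; its value was 2.15, and COL12A1 lay lowest at -0.98.

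Among the fibrillar chains, those of types I and III, the main collagens of dermis, had the widest gaps between phases. COL1A1, the alpha 1 chain of type I, was at 58.6 in the female and 19.8 in the male mid library, against 0.179 in the female and 0.987 in the male early library. COL1A2, its alpha 2 partner, was at 39.5 and 9.66 in the female and male mid libraries, against 0.0989 and 0.669 in the female and male early libraries. COL3A1, the chain of type III, was at 28.6 and 5.96 in the female and male mid libraries, against 0.0299 and 0.411 in the female and male early libraries. In all 3 genes the mid female library was the highest and the early female the lowest. Log2 fold changes were 4.52 for COL1A1 (SE 0.53, limma adjusted p = 0.0551), 3.94 for COL1A2 (SE 0.63, adjusted p = 0.0711) and 3.57 for COL3A1 (SE 0.67, adjusted p = 0.0741). None of these passed as deposited, although all 3 did after rescaling to a common total (limma adjusted p = 0.018, 0.0368 and 0.0432), and all 3 reached 1 only in the mid libraries. A second gene described as type I alpha 1-like, LOC108638100, was listed at 0 in all 4 libraries.

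The other type V chains were already expressed at early anagen. COL5A2 was at 22.9 and 17.1 in the female and male mid libraries, against 8.93 and 9.69 in the female and male early libraries (log2 fold change 1.01, SE 0.18, limma adjusted p = 0.0726). COL5A3 was at 11.3 and 7.06 in the female and male mid libraries, against 3.88 and 1.62 in the female and male early libraries. Neither overlapped between phases. The summed level of the 3 type V chains was 3.09 times as high in the female pair and 3.03 times as high in the male pair, mid over early. For the 6 chains of types I, III and VI together the same ratios were 236 and 14.4. These stand over early sums of only 0.852 in the female and 3.98 in the male library. Among the 6, COL1A1, COL1A2, COL3A1, COL6A1 and COL6A3 reached 1 only in the mid libraries, so the filter had fixed their direction. The ratio of COL5A1 to COL5A2 within a library was 0.702 and 1.07 in the female and male mid libraries, against 0.391 and 0.285 in the female and male early libraries, without overlap.

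Of the minor fibrillar chains, COL24A1, a chain known from developing bone and cornea in mice, was at 7.01 and 5.64 in the female and male mid libraries, against 2.37 and 0.641 in the female and male early libraries. COL11A1, a partner of type II in cartilage fibrils, was at 1.13 and 1.53 in the female and male mid libraries, against 0.173 and 0.0408 in the female and male early libraries. Both were apart between phases at low levels, and neither passed (limma adjusted p = 0.0834 for each); COL11A1 reached 1 only in the mid libraries. COL27A1, a fibrillar chain of cartilage, overlapped, at 6.51 and 12.2 in the female and male mid libraries and at 7.74 and 5.75 in the female and male early libraries. COL2A1, the cartilage type II chain, and COL11A2 stayed at or below 0.400 in every library. The summed fibrillar level was 192 and 97.7 in the female and male mid libraries, against 27.1 and 22.6 in the female and male early libraries, a ratio of phase means of 5.82. Left without the mid female library, the ratio was 3.93.

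Type VI chains had the greatest relative difference of any class. COL6A1 was at 31.0 in the female and 8.73 in the male mid library, against 0.0315 in the female and 0.404 in the male early library. COL6A2 was at 27.5 and 8.997 in the female and male mid libraries, against 0.490 and 1.23 in the female and male early libraries. COL6A3, the long chain that completes the usual type VI trimer, was at 16.2 and 4.24 in the female and male mid libraries, against 0.0221 and 0.271 in the female and male early libraries. All 3 were separate between phases, again highest in the mid female library, but none passed, and COL6A1 and COL6A3 reached 1 only in the mid libraries. The log2 fold changes were 3.87 for COL6A1 (SE 0.56, limma adjusted p = 0.0639), 3.21 for COL6A2 (SE 0.51, adjusted p = 0.0711) and 3.06 for COL6A3 (SE 0.56, adjusted p = 0.0726). COL6A5 and COL6A6, alternatives to COL6A3, stayed at or below 0.0403 in every library. The class summed to 74.7 and 22.0 in the female and male mid libraries, against 0.590 and 1.95 in the female and male early libraries. The ratio of phase means was 38.1, and it was 17.3 without the mid female and 82.03 without the early male library.

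Partner chains could be set against each other in the mid libraries. COL1A1 stood to COL1A2 at 1.48 in the female and 2.05 in the male mid library. COL6A1 stood to COL6A2 at 1.13 and 0.971 and to COL6A3 at 1.91 and 2.06 in the female and male mid libraries. The levels themselves were 2.96 to 4.80 times as high in the mid female as in the mid male library for each of the 6 chains of types I, III and VI. In the early libraries at least 1 chain of each of these pairs was under 1, so no ratio is given.

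The order mid female, mid male, early male, early female from highest to lowest was singled out after the values were seen. It held for 7 of the 25 tested collagens, namely the 6 chains of types I, III and VI and COL5A2, and for 3.52% of all tested genes. Among the 19 collagens that reached 1 in an early library it held for 2, COL5A2 and COL6A2, against 3.33% of all genes so selected. In the other members with this order, the filter had set the mid values above the early values in advance. Fibroblast genes outside the collagens also had higher values at mid anagen, with 9 of 10 tested markers higher in both mid libraries. Over all tested genes this share was 31.5% as deposited and 57.2% after rescaling to a common total. The filter fixed the direction of 6 of the 10, which reached 1 only in the mid libraries. Of 16 fibroblast markers, 11 and 10 were at or above 1 in the female and male mid libraries, against 4 in the female and 4 in the male early library. Their summed level was 469 and 518 in the female and male mid libraries, against 143 and 131 in the female and male early libraries. Without SPARC and VIM, which dominate the sum, it was 78.7 and 56.6, against 44.1 and 27.6. Most of that early remainder was the marker THY1, at 39.4 and 23.0 in the female and male early libraries. In the female and male mid libraries THY1 was at 16.4 and 28.8, so the reduced sum says little about the other markers. FBN1, the microfibril protein fibrillin, was the 1 marker called higher (log2 fold change 2.84, SE 0.23, limma adjusted p = 0.0323). FBN1 was among those that reached 1 only in the mid libraries. Tested or not, 15 of the 16 markers were higher in both mid libraries, and THY1, a surface marker of fibroblasts, overlapped between phases. In the mid libraries 12 of the 16 were higher in the female and 4 in the male, so not all followed the order of the type I, III and VI chains.

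DCN, the fibril-binding proteoglycan decorin, was at 21.0 and 3.38 in the female and male mid libraries, against 0 and 0.0774 in the female and male early libraries. PDGFRA, a fibroblast receptor, was at 0.810 and 0.353 in the female and male mid libraries, against 0.0907 and 0.0713 in the female and male early libraries, and its relative PDGFRB was at 1.53 and 0.591, against 0.0439 and 0.0218. LUM, the proteoglycan lumican, was at 12.2 and 2.85 in the female and male mid libraries, against 0.176 and 0.139 in the female and male early libraries. PRRX1, a transcription factor of mesenchyme, and POSTN, the matrix protein periostin, had log2 fold changes of 2.22 and 1.43. The 4 markers with higher values in the mid male than in the mid female library were VIM, the filament protein vimentin, TWIST2 and ZEB1, transcription factors of mesenchyme, and THY1. VIM was at 187 and 298 in the female and male mid libraries, against 20.6 and 78.5 in the female and male early libraries. TWIST2 was at 4.10 and 8.05 in the female and male mid libraries, against 3.20 and 3.16 in the female and male early libraries. ZEB1 stayed under 1 in every library, and THY1 was at 16.4 and 28.8 in the female and male mid libraries and at 39.4 and 23.0 in the female and male early libraries.

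Among the stem cell and basal keratinocyte markers 1 was called higher and 0 lower, namely LHX2, a transcription factor of follicle stem cells. LHX2 was at 31.7 and 32.1 in the female and male mid libraries, against 9.54 and 6.94 in the female and male early libraries (log2 fold change 1.85, SE 0.18, limma adjusted p = 0.0431). The next by p were TCF7L1, TBX1, LGR5 and SOX9, also known from follicle stem cells, with log2 fold changes of 2.40, 1.94, 1.49 and 0.80, none of which passed. All 7 dermal papilla markers were under 1 in every library. Of other cell types, the immune marker PTPRC, the endothelial marker CDH5 and the melanocyte marker DCT were at 0 in every library, but other members of such lists were not. CD14, of the immune list, was at 12.6 and 8.52 in the female and male mid libraries, against 3.28 and 2.49 in the female and male early libraries. ERG, the 1 endothelial marker tested, was at 4.19 and 5.24 in the female and male mid libraries, against 0.884 and 0.333 in the female and male early libraries. ERG reached 1 only in the mid libraries, so the filter had fixed its direction. Of the 2 Schwann cell markers tested, S100B was at 21.2 and 21.9 in the female and male mid libraries, against 8.57 and 5.35 in the female and male early libraries. The other, ERBB3, was at 33.9 and 39.1 in the female and male mid libraries, against 22.7 and 20.1 in the female and male early libraries. These 4 genes did not overlap between phases and did not pass (limma adjusted p = 0.0625 to 0.0783). CD68, the other immune marker tested, overlapped (log2 fold change -0.14), as did the melanocyte marker MITF (0.15). PMEL, the other melanocyte marker tested, was slightly lower in both mid libraries (-0.10). Of the untested endothelial markers, all under 1, PECAM1 was lower in both mid libraries, and KDR, VWF and TEK were higher in both. The 6 smooth muscle and pericyte markers summed to 74.8 and 107 in the female and male mid libraries and 77.8 and 66.7 in the female and male early libraries. In RNA from whole cultures, fewer cells of a type and less RNA per cell cannot be told apart. The part of the fibroblast and other markers in the levels of types I, III and VI was not tested.

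**Figure D3:**
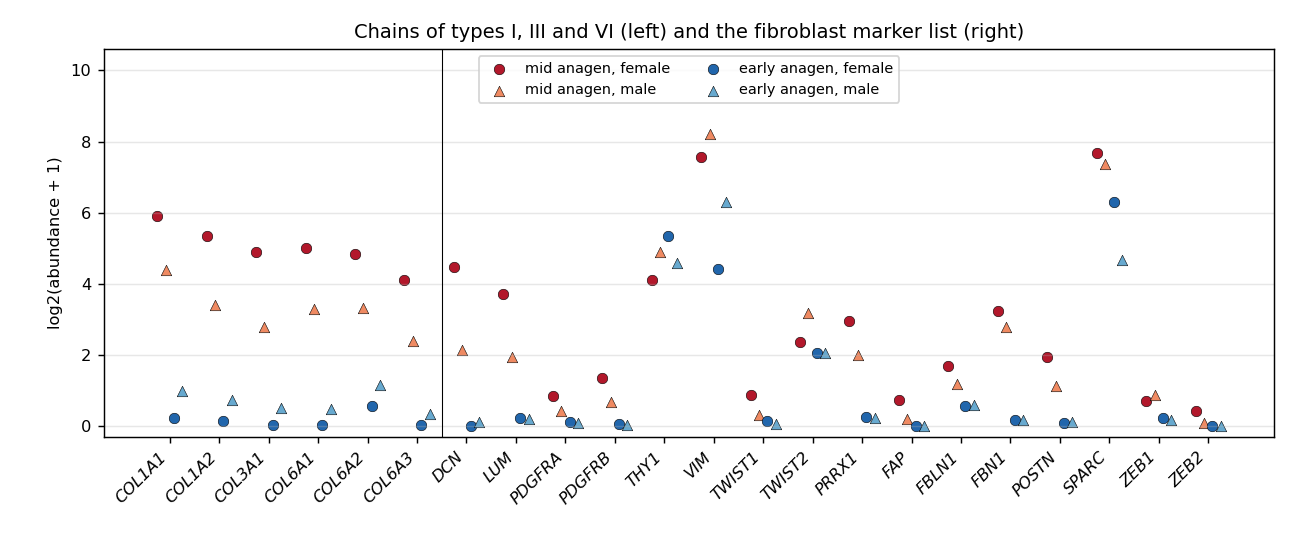
Abundance of the 6 chains of types I, III and VI (left of the line) and of the 16 fibroblast markers (right of the line) in each library, as log2(abundance + 1), circles for female and triangles for male, red shades for mid and blue shades for early anagen. Both mid libraries lie above both early libraries for every gene shown but THY1, and the mid female lies above the mid male for all 6 chains but not for THY1, VIM, TWIST2 and ZEB1.

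Basement membrane collagens were present at both phases, and 4 of their 7 genes were higher in both mid libraries, a state found in 31.5% of all tested genes as deposited and 57.2% after rescaling to a common total. COL18A1, the core of a heparan sulphate proteoglycan of basement membranes, was at 165 in the female and 135 in the male mid library, against 72.6 in the female and 54.6 in the male early library. After COL17A1 it was the most abundant collagen in both mid libraries and in the early female library, while COL12A1 held that place in the early male library. Its log2 fold change was 1.23 (SE 0.21, limma adjusted p = 0.0724). COL7A1, the chain of the anchoring fibrils below epidermis, was at 24.0 and 16.9 in the female and male mid libraries, against 14.02 and 9.22 in the female and male early libraries (log2 fold change 0.77, SE 0.26, adjusted p = 0.139). Neither passed, and both were higher in the female library of each phase.

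The type IV network differed by its chains. COL4A1 was at 28.8 and 52.2 in the female and male mid libraries, against 17.4 and 22.4 in the female and male early libraries (log2 fold change 0.94, SE 0.30, limma adjusted p = 0.13). COL4A2, its partner in the common type IV trimer, was at 40.9 and 67.5 in the female and male mid libraries, against 28.1 and 27.1 in the female and male early libraries (log2 fold change 0.90, SE 0.25, adjusted p = 0.105). Both were without overlap but did not pass, and the ratio of COL4A1 to COL4A2 overlapped, at 0.705 and 0.773 in the female and male mid libraries and 0.617 and 0.825 in the female and male early libraries. The chains of the other type IV trimers overlapped between phases. COL4A3 was at 1.501 and 8.97 in the female and male mid libraries and at 1.52 and 3.90 in the female and male early libraries. COL4A4 was at 5.68 and 23.0 in the female and male mid libraries and at 5.19 and 12.5 in the female and male early libraries. Both were higher in the male than in the female library of each phase, and their ratio to each other stayed between 0.264 and 0.389. COL4A5 was at 5.74 and 2.43 in the female and male mid libraries and at 3.45 and 3.92 in the female and male early libraries, with the pairs moving in opposite directions. The class summed to 272 and 306 in the female and male mid libraries, against 142 and 134 in the female and male early libraries, a ratio of 2.09.

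Neither of the 2 fibril-associated collagens that could be tested was higher in both mid libraries. COL12A1, which binds the surface of type I fibrils, was at 40.4 and 40.8 in the female and male mid libraries, against 55.2 and 119 in the female and male early libraries. It was the only tested collagen that was lower in both mid libraries, and it did not pass (log2 fold change -0.98, SE 0.36, limma adjusted p = 0.157). In the early libraries COL12A1 was far above the type I chains, whereas in the mid female library COL1A1 was the higher. COL16A1, a minor fibril-associated chain of skin, was at 11.8 and 6.07 in the female and male mid libraries and at 9.15 and 5.996 in the female and male early libraries (log2 fold change 0.17, SE 0.34, adjusted p = 0.771). The class summed to 53.2 and 50.7 in the female and male mid libraries, against 64.9 and 126 in the female and male early libraries, mostly COL12A1. The other 8 chains of the class were below the filter. COL14A1 and COL21A1 reached 1 only in the mid male library, at 1.63 and 1.86, and COL20A1 was at 0 throughout. Among these untested chains, COL21A1 and COL9A1 were higher in both mid libraries and COL9A2 was lower in both.

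Of the remaining collagens, COL8A1, a short-chain network collagen of vessels and of the membrane below the corneal endothelium, was the most abundant. It overlapped between phases, at 44.9 and 64.4 in the female and male mid libraries and at 49.0 and 81.6 in the female and male early libraries (log2 fold change -0.23, SE 0.30, limma adjusted p = 0.649). Its direction turned to 0.11 after rescaling to a common total. COL15A1, a relative of COL18A1 found near basement membranes, was at 6.57 and 4.88 in the female and male mid libraries, against 1.83 and 1.57 in the female and male early libraries. The log2 fold change of COL15A1 was 1.31 (SE 0.20, adjusted p = 0.07), without overlap, and it did not pass.

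In all, 16 of the 43 genes were under 1 in every library, the highest being COL11A2 at 0.400 in the mid male library. They were the cartilage chains COL2A1, COL9A1, COL9A2, COL9A3, COL10A1 and COL11A2, together with COL6A5, COL6A6, COL8A2, COL13A1, COL19A1, COL20A1, COL22A1, COL25A1, COL26A1 and COL28A1. COL20A1 and COL25A1 were at 0 in all libraries. For COL2A1, COL13A1 and COL26A1 the early female value was 1.09 times the early male value. Among the 2192 genes that never reached 0.6 and were detected in each early library, 13.4% had a ratio between 1.07 and 1.11, the fullest bin. Of the 12 collagens among them, these 3 fell in that bin, and the ratios of the others ran from 0.364 to 3.88.

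The make-up of the collagen pool can be set out by class without regard to scaling between libraries. Fibrillar chains made up 11.3% and 6.90% of the summed collagen level in the female and male mid libraries, against 1.65% and 1.75% in the female and male early libraries. Basement membrane chains made up 16.0% and 21.6% in the female and male mid libraries, against 8.63% and 10.3% in the female and male early libraries. Type VI chains made up 4.40% and 1.55% in the female and male mid libraries, against 0.0358% and 0.151% in the female and male early libraries. These 3 shares did not overlap between phases. Fibril-associated chains made up 3.13% and 3.58% in the female and male mid libraries, against 3.94% and 9.75% in the female and male early libraries, also without overlap.

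With COL17A1 set aside, the basement membrane share overlapped between phases, at 42.1% and 55.6% in the female and male mid libraries and 49.5% and 36.04% in the female and male early libraries. The fibrillar share on this basis was 29.7% and 17.8% in the female and male mid libraries, against 9.44% and 6.10% in the female and male early libraries. The fibril-associated share was 8.23% and 9.22% in the mid libraries, against 22.6% and 34.05% in the early libraries, in the same order of sex. Neither of these shares overlapped between phases. The summed level of all 43 genes was 1697 and 1416 in the female and male mid libraries and 1648 and 1294 in the female and male early libraries, which overlap, and without COL17A1 it was 646 and 550, against 287 and 371. With 2 libraries per phase an exact permutation test cannot give a two-sided p below 0.333, so sums and shares were not tested.

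**Figure D4:**
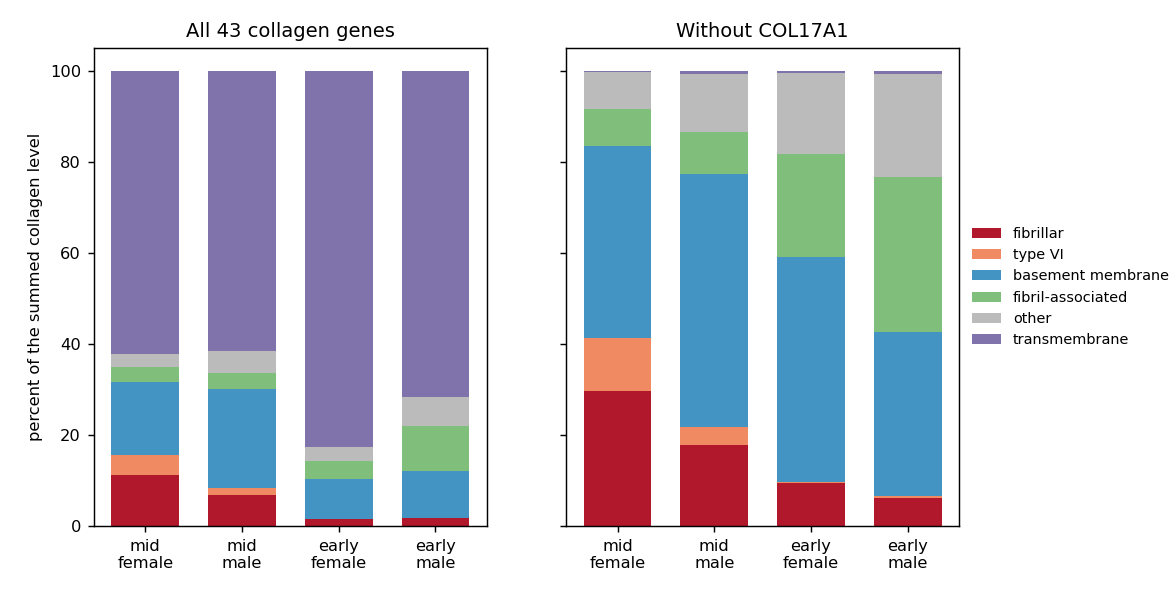
Share of the summed collagen level by class in each library, in percent, for all 43 genes (left) and without COL17A1 (right), mid anagen libraries left of early anagen libraries in each panel. Fibrillar chains hold 11.3% and 6.90% at mid anagen against 1.65% and 1.75% at early anagen in the left panel, and the transmembrane share there is almost all COL17A1.

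Neighbouring collagen genes, by gene order in the RefSeq annotation of the ARS1.2 goat assembly, formed 6 adjacent pairs. COL4A1 and COL4A2 on chromosome 12 had close log2 fold changes, 0.94 and 0.90, as did COL4A3 and COL4A4 on chromosome 2, at 0.51 and 0.47. COL6A1 and COL6A2 on chromosome 1 differed more, at 3.87 and 3.21. COL3A1 and COL5A2, adjacent on chromosome 2, were at 3.57 and 1.01, with COL3A1 under 1 and COL5A2 well above it in both early libraries. The other adjacent pairs were COL6A5 with COL6A6 and COL9A1 with COL19A1, all under 1 in every library.

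Differences between the sexes were examined in a fit with phase and sex, added after the values were seen. Of the 25 collagens 0 were called and 9 had an unadjusted p under 0.05, while 18 of 12486 genes (0.144%) were called in limma and 1376 (11%) had an unadjusted p under 0.05. COL4A4 came nearest, with male over female at 1.49 on the log2 scale (SE 0.21, limma adjusted p = 0.063), followed by COL4A3 at 1.48 (SE 0.27, adjusted p = 0.108). A total of 6 collagens were higher in the male library of both phases, namely COL4A1, COL4A3, COL4A4, COL23A1, COL12A1 and COL8A1. Another 7 were higher in the female library of both phases, namely COL5A3, COL24A1, COL7A1, COL18A1, COL17A1, COL16A1 and COL15A1. These counts are 24% and 28% of the tested collagens, against 29.7% and 28.1% of all tested genes. Sex and replicate number are the same in these libraries.

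Genes that make, mature and bind collagen were read from the same fit, in lists taken from general knowledge. Of the 13 tested hydroxylation and glycosylation genes, 0 passed in limma (2 at an unadjusted p under 0.05, as had 27.9% of all tested genes) and the median log2 fold change was 0.11, beside 0.01 for all tested genes. PLOD3, a lysyl hydroxylase that also glycosylates, was at 23.3 and 27.4 in the female and male mid libraries, against 17.1 and 17.4 in the female and male early libraries (limma adjusted p = 0.11). PLOD1, another lysyl hydroxylase, was at 20.2 and 19.0, against 14.7 and 14.2. P3H1 and P3H2, prolyl 3-hydroxylases, had log2 fold changes of 0.35 and 0.68.

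Of 13 tested genes of folding and export, 0 passed in limma (5 at an unadjusted p under 0.05, beside 27.9% of all tested genes), with a median of 0.24. CREB3L1, a transcription factor of the endoplasmic reticulum that drives type I collagen genes in mouse bone, was at 80.8 and 103 in the female and male mid libraries, against 37.4 and 22.2 in the female and male early libraries (log2 fold change 1.63, SE 0.28, limma adjusted p = 0.0724). SEC23A, a coat protein needed for export of large procollagens, was at 117 and 47.5, against 30.7 and 26.1. SEC24D and MIA3, which act in the same export step, had log2 fold changes of 0.51 and 0.48. HSPA5, a general chaperone picked with its values in view, stood at 1213 and 411 in the female and male mid libraries, against 325 and 367 in the female and male early libraries, so the mid female library stood apart. SERPINH1, the collagen chaperone, overlapped between phases, at 71.1 and 73.8 in the female and male mid libraries and 52.2 and 72.0 in the female and male early libraries.

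Propeptide removal and cross-linking genes had a median of 0.93 over 10 tested of 15, 2 of them kept only through the mid libraries, and 0 passed in limma (4 at an unadjusted p under 0.05, beside 27.9% of all tested genes). LOXL2, a lysyl oxidase that acts on type IV collagen, was at 38.0 and 24.9 in the female and male mid libraries, against 9.58 and 5.38 in the female and male early libraries (log2 fold change 1.95, SE 0.31, limma adjusted p = 0.0711). The log2 fold change of LOXL1 was 1.47 (SE 0.19, adjusted p = 0.0601). LOX and LOXL3, which reached 1 only in the mid libraries, had log2 fold changes of 1.42 and 1.08.

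Collagen receptors had a median of 0.39 over 9 tested of 12, with 0 past the threshold in limma (4 at an unadjusted p under 0.05, beside 27.9% of all tested genes) and 7 higher in both mid libraries, beside 31.5% of all tested genes. After rescaling to a common total, 57.2% of all tested genes were higher in this way. ITGA1, the collagen-binding integrin alpha 1 chain, was at 8.24 and 5.74 in the female and male mid libraries, against 2.00 and 1.09 in the female and male early libraries (log2 fold change 1.66, SE 0.27, limma adjusted p = 0.0711). DDR2, a receptor kinase for fibrillar collagen, was at 4.77 and 3.33, against 1.56 and 0.409. MRC2, an uptake receptor for collagen fragments, was at 18.5 and 12.1, against 6.60 and 2.80. ADGRG1, a receptor for type III collagen, had a log2 fold change of 0.55. ITGA2 and DDR1, the receptors of keratinocytes, overlapped between phases.

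Regulators of fibril assembly had 3 of 10 tested members called higher and 0 lower, beside 0.224% and 0.0801% of all tested genes, with a median of 2.35, and 5 of the 10 were kept only through the mid libraries. The called genes were FN1, fibronectin, BGN, biglycan, and FMOD, fibromodulin, a proteoglycan that binds type I fibrils. FMOD was at 7.55 and 4.76 in the female and male mid libraries, against 0.196 and 0 in the female and male early libraries (log2 fold change 2.68, SE 0.27, limma adjusted p = 0.0431). FMOD reached 1 only in the mid libraries. KERA, the corneal proteoglycan keratocan, was at 0 in all libraries.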

How the data were processed

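RNA-seq abundances of 4 libraries were used, 2 per phase. The deposited signal is 1 abundance per gene that behaves like length-normalised values scaled between libraries, with totals other than 1000000; the submitters' processing notes list kallisto 0.46.1 and sleuth 0.30.0. The sources used here do not give the build, annotation or gene-level summary. Read depth is unknown, so no counting interval is given and precision rests on 2 libraries per phase. Values were analysed as log2(value + 1), which understates changes of low genes, in R 4.3.3 with limma 3.58.1 (intensity trend, phase as the only term). Genes at or above 1 in at least 2 libraries were tested, and p-values were adjusted over all 12486 by the Benjamini-Hochberg method at 0.05. The fit was tested on simulated data. Of the gene identifiers 20294 matched the RefSeq table of ARS1.2, used for gene order and span; no coordinates are given because the build may differ. Members, classes and lists were chosen with earlier results of these data known. Every tested collagen is named; of each pathway list and of the stem cell and fibroblast marker lists, called genes and up to 4 of smallest p are, and other genes were named after their values were seen. Alternatives were a common total, pseudocounts of 0.1 and 5, no filter, a filter of 5, a replicate block, removal of the span trend and leaving out each library.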

Additional observations from a re-analysis of the deposited data

Results flagged for a closer look

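Among the tested collagens, 2 had opposite directions in the 2 sexes, with at least 0.2 in each on the log2(value + 1) scale. The log2 fold change of COL4A5, mid minus early, was 0.60 between the female libraries and -0.52 between the male libraries. For COL27A1 it was -0.22 between the female and 0.96 between the male libraries. There is 1 library for each sex and phase, a phase-by-sex term leaves no residual degrees of freedom, and these differences between the pairs were not tested.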

How the results depend on the processing

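COL5A1 was called higher as deposited. It was the only collagen called with pseudocounts of 0.1 and 5 and with the span trend removed, and 0 collagens were called lower in limma under these alternatives (0 or 1 at an unadjusted p under 0.05). Collagens called higher numbered 12 after rescaling to a common total, 16 with the replicate block, 2 with a filter of 5 (COL1A1 and COL5A1) and 0 with no filter (15 collagens and 3843 genes at an unadjusted p under 0.05). All genes called numbered 651, 1782, 57 and 0 in these fits and 18 with a pseudocount of 0.1, against 38 as deposited. Leaving out 1 library gave 0 to 733 genes and 0 to 10 collagens, with 9 collagens without the mid female, 10 without the mid male and 0 without either early library (16 collagens and 2897 genes without the female and 14 and 1445 without the male at an unadjusted p under 0.05). The lone library of a phase is then assumed to vary like the pair of the other. The 16 collagens called with the replicate block were the 12 called after rescaling, with COL11A1, COL4A1, COL4A2 and COL7A1. The replicate numbers equal the sexes, the labels do not say that they mark a shared animal, and deviations of same-numbered libraries correlated at 0.29 over tested genes.

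The median log2 fold change of tested collagens, 1.01 as deposited, was 1.27 rescaled, 0.38 with no filter and 0.75 with the span trend removed. Rescaling moved the median of all tested genes from 0.01 to 0.32. Tested collagens have a median span of 102240 bp against 21947 bp for all tested genes. Ratios of summed levels after rescaling were 2.66 for basement membrane, 1.05 for transmembrane and 1.17 for other collagens, against 2.09, 0.841 and 0.901 as deposited. Leaving out each library gave ratios of 3.93 to 7.71 for fibrillar, 1.97 to 2.22 for basement membrane, 17.3 to 82.03 for type VI, 0.706 to 1.04 for transmembrane, 0.411 to 0.8002 for fibril-associated and 0.727 to 1.19 for other collagens. The mid minus early difference in share ran from 6.54 to 12.1 percentage points for basement membrane and from -2.47 to 0.87 for other collagens.

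Of 269 single-gene values under the alternatives, 208 kept direction and side of the threshold, 44 became calls, 3 lost a call (COL5A1) and 14 reversed, none of these from a called gene. COL17A1 and COL8A1 were each at 0.11 rescaled, and COL4A5 at -0.29 with the span trend removed. The other reversals came from leaving out 1 library, which gave -0.51 to 0.048 for COL17A1, -0.59 to 0.13 for COL8A1, -0.45 to 0.53 for COL4A5, -0.25 to 0.60 for COL16A1, -0.032 to 0.78 for COL27A1, -0.49 to 1.505 for COL4A3 and -0.45 to 1.395 for COL4A4. The cause of these changes was not tested.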
